A study of Mus musculus with 3 samples.

Results

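The genes described here are 37 markers of mesoderm, ectoderm and blood, named by gene symbol. No measured value served to pick a gene, but the list was chosen with earlier results of these data known. The markers cover the primitive streak, paraxial mesoderm, posterior axis, heart, blood, endothelium, nervous system and neural crest. Of these, 36 had a probe set under a single gene symbol among the 18193 genes of the array. T, the T-box factor brachyury of the primitive streak, had none in the annotation used and was not analysed here. Where a gene had several probe sets, the one with the strongest average signal stands for it.

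The arrays measured messenger RNA of embryoid bodies, aggregates of mouse embryonic stem cells that differentiate in suspension, all collected on day 7. The stem cells are of strain 129S7/SvEv Brd-Hprt b-m2. RQ bodies carried human BRCA1 with the substitution R1699Q in the series design, which the label of that array writes as R1669Q, MI bodies carried human BRCA1 with M1652I, and WT bodies carried wild-type human BRCA1. The labels do not state the status of the mouse Brca1 gene, nor how many cell clones or cultures stand behind an array. With 1 array per genotype there is no replicate and no test, so higher and lower refer to these arrays alone and their number limits the precision.

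Embryoid bodies form outer endoderm early and can then pass through a gastrulation-like stage. T-box and bHLH factors mark nascent mesoderm in the primitive streak, from which paraxial, cardiac, blood and endothelial cells derive, while Sox and Pax factors mark the neural plate and Sox10 and Tfap2a the neural crest. Terminal products such as cardiac myosin, embryonic globin and neuronal tubulin appear later than the regulators.

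The median log2 signal over all 45101 probe sets was 6.28 on the RQ array, 6.35 on the MI array and 6.29 on the WT array, and the markers are given as log2 distances from these medians. Probe sets differ in how strongly they bind, so a distance sets no gene's abundance against another gene's, and no detection calls were used here. In whole bodies, fewer cells of a type and less RNA per cell cannot be told apart.

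The lineage markers as a group read at the middle of each array. Their median distance was 0.04 in RQ, 0.09 in MI and -0.04 in WT, against 0.32, 0.32 and 0.30 over all genes on the same arrays. At least 1 log2 unit above the array median stood 8 of 36 markers in RQ (22.2%), 7 in MI (19.4%) and 5 in WT (13.9%). Over all genes these shares were 27.3% in RQ, 24.5% in MI and 25.9% in WT, each above the share of the markers. Most listed regulators and terminal products of these lineages thus stood less than 1 unit above the middle of the arrays, as did most genes. With each gene taken as the average of its probe sets, the marker counts were 2 in RQ, 1 in MI and 1 in WT. The shares of all genes under that averaging were not counted, so these counts have no background beside them. With the strongest probe set, 17 of 36 markers lay below the array median in RQ, 13 in MI and 19 in WT. Over all 18193 genes, 6279 lay below it in RQ, 6131 in MI and 6329 in WT.

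The markers past 1 unit on all 3 arrays were Ttn, Nes, Stmn2, Sox10 and Tfap2a. Hand1 and Mitf passed it in RQ and MI, and Tcf15 in RQ. The nearest to the limit on the WT array were Ttn at 1.10 above the median and Hand1 at 0.95. None of the streak, posterior, blood or endothelial markers reached it on any array.

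**Figure D1:**
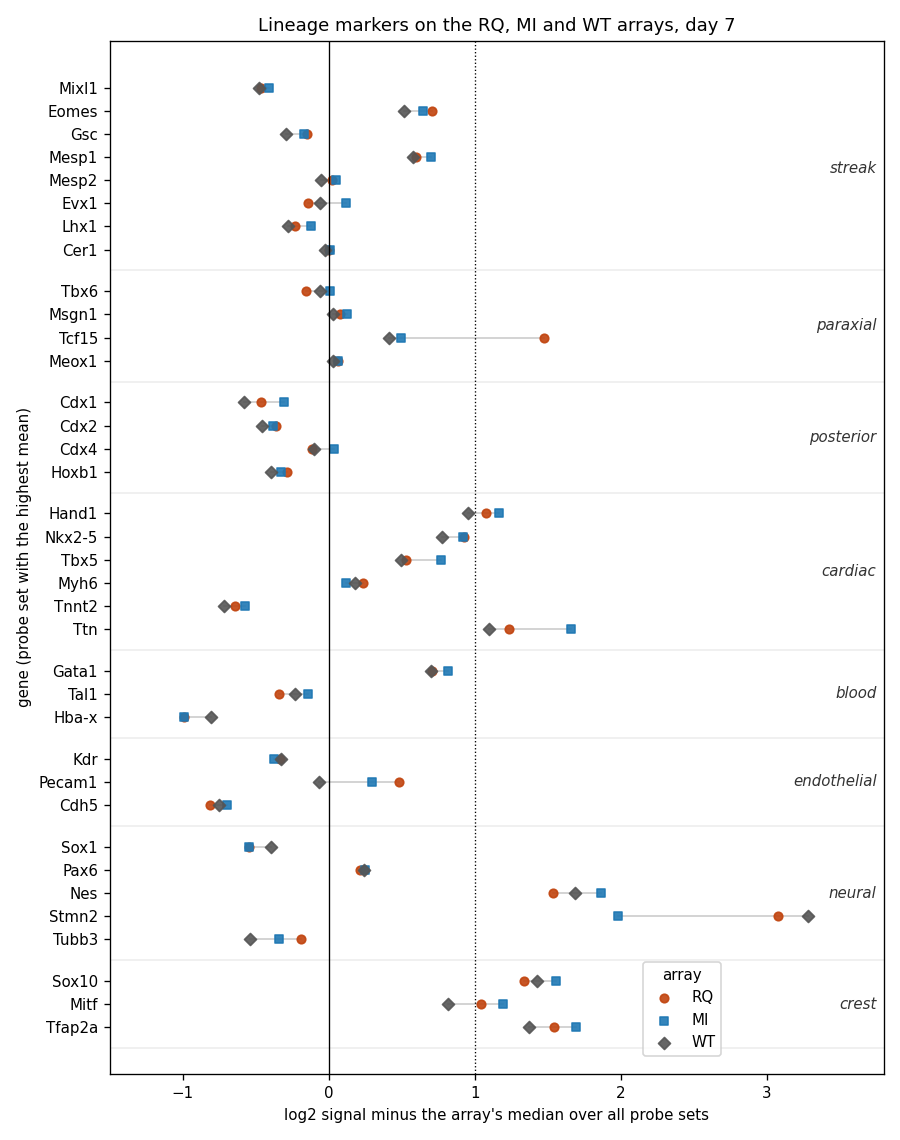
Distance of each measured marker from the median of its array, in log2 units, with the RQ, MI and WT arrays as circles, squares and diamonds, the median as a solid line and 1 unit above it as a dotted line. Most markers lie within 1 unit of the median with the 3 arrays close together, while Stmn2 reaches 3.28 in WT and Tcf15 is set apart in RQ at 1.48.

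Promoter sequence is a property that the choice of markers did not use. Windows from 250 bases before to 50 bases after the transcription start were read from RefSeq (build GRCm38.p6) for the 26 measured markers that matched by symbol, with 32 windows in all. CpG-rich windows, with at least 50% G and C and an observed to expected CpG ratio of at least 0.6, made up 12 of the 32 (37.5%), against 33.5% of all 32851 windows in the table. The median ratio was 0.61 for marker windows and 0.38 for all windows. The 23 windows of 18 transcription factor genes had a median ratio of 0.65 (0.17 to 1.07), and the 9 windows of the other 8 genes had 0.31 (0.06 to 0.77). The letters TATAAA were found on either strand in 5 of the 32 windows (15.6%), against 13.6% of all windows. These counts describe the letters of the windows alone.

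A pair of CpG-rich promoters is shown beside a pair with TATAAA, because both kinds occur among markers at different distances from the array median. Sox1 and Nes are neural genes, and capitals mark each CG in their windows (37 in Sox1 and 18 in Nes). Hba-x and Myh6 are terminal products of blood and heart, and capitals mark TATAAA, which starts 28 bases before the annotated start in Hba-x and 1 base after it in Myh6. Sox1 had an observed to expected ratio of 1.07, Nes 0.70, Hba-x 0.09 and Myh6 0.08.
Sox1 promoter, chr8:12395269-12395568 (+): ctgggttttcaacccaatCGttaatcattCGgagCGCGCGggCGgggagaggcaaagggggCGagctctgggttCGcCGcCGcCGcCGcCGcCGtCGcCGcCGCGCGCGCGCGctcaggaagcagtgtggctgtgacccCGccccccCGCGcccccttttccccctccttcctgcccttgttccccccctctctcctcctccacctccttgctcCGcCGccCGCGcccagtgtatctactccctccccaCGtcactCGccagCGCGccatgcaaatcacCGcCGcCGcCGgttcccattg
Nes promoter, chr3:87970843-87971142 (+): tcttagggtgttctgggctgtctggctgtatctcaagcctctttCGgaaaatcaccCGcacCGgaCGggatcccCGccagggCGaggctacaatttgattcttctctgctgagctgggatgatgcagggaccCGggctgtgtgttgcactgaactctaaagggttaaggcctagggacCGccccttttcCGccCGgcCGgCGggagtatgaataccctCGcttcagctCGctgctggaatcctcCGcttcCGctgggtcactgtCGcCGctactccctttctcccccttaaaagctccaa
Hba-x promoter, chr11:32276350-32276649 (+): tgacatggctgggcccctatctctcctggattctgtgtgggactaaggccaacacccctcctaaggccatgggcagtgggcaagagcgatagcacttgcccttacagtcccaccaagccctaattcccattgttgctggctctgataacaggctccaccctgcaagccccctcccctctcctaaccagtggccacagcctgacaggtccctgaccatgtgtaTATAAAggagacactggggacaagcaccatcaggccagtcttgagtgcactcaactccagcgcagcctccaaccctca
Myh6 promoter, chr14:54966558-54966857 (-): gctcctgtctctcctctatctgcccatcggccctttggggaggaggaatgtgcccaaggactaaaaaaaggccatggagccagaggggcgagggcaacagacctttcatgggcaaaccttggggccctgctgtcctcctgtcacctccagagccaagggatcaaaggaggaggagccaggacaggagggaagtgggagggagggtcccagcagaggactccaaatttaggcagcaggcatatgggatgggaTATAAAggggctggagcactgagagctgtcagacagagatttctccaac
Of these 4 genes, Sox1 and Hba-x lay below the median on each array, Myh6 just above it and Nes more than 1 unit above it.

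Among the streak regulators, none stood 1 unit above the median. Eomes, a T-box factor of nascent mesoderm and endoderm, read log2 6.98 in RQ, 7.00 in MI and 6.81 in WT. Mesp1, a bHLH factor of the earliest cardiac mesoderm, read 6.87 in RQ, 7.05 in MI and 6.86 in WT. These 2 were the streak markers farthest above the median, and their arrays differed by at most 0.19. Mesp2, the neighbouring gene of Mesp1 on chromosome 7 and a regulator of somite boundaries, read 6.30 in RQ, 6.40 in MI and 6.23 in WT.

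The other streak markers lay below the median or at most 0.12 above it. Mixl1, a homeobox factor of the streak, read 5.81 in RQ, 5.94 in MI and 5.81 in WT. Gsc, the organizer homeobox factor goosecoid, read 6.13 in RQ, 6.18 in MI and 5.99 in WT. Lhx1, a LIM homeobox factor of the anterior streak, read 6.05 in RQ, 6.23 in MI and 6.01 in WT. Mixl1, Gsc and Lhx1 were each lowest in WT by small amounts. Evx1, a homeobox factor of the posterior streak, read 6.14 in RQ, 6.47 in MI and 6.23 in WT. Cer1, a secreted inhibitor of Nodal and BMP made by anterior endoderm, read 6.28 in RQ, 6.36 in MI and 6.26 in WT. On its strongest probe set, each of the 8 streak markers was higher in MI than in WT, by 0.10 to 0.24. The second Lhx1 probe set gave -0.02.

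Paraxial mesoderm held the marker that differed most in RQ. Tcf15, a bHLH factor of somites that is also known from embryonic stem cells leaving the naive state, read 7.75 in RQ, 6.85 in MI and 6.70 in WT. The RQ array thus stood apart, with Tcf15 2.07-fold higher than in WT (log2 difference 1.05) and short of 2-fold against MI (0.91). Tcf15 has a single probe set here. Quantile normalization repeated on the 3 arrays gave 0.96 for RQ minus WT, just short of 2-fold, while centred arrays gave 1.06 and the lowess correction 1.03.

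The other paraxial markers gave no such reading. Tbx6, the T-box factor that directs cells to the paraxial fate, read 6.12 in RQ, 6.36 in MI and 6.23 in WT. Msgn1, a bHLH factor of presomitic mesoderm, read 6.35 in RQ, 6.48 in MI and 6.32 in WT. Meox1, a homeobox factor of somites, read 6.34 in RQ, 6.41 in MI and 6.32 in WT. Presomitic and somite markers other than Tcf15 thus stayed within 0.16 of the array median.

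The posterior markers were at or below the median on nearly every array. Cdx1, a caudal homeobox factor, read 5.81 in RQ, 6.04 in MI and 5.71 in WT. Cdx2, which also marks trophoblast, read 5.92 in RQ, 5.97 in MI and 5.83 in WT. Cdx4 read 6.16 in RQ, 6.38 in MI and 6.19 in WT, and was 0.03 above the median in MI. Hoxb1, a Hox gene of the hindbrain and early posterior mesoderm, read 5.99 in RQ, 6.02 in MI and 5.89 in WT.

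The heart markers comprised 3 regulators and 3 contractile genes. Hand1, a bHLH factor of heart, extraembryonic mesoderm and trophoblast, read 7.35 in RQ, 7.52 in MI and 7.24 in WT. Nkx2-5, the cardiac homeobox factor, read 7.21 in RQ, 7.27 in MI and 7.06 in WT. Tbx5, a T-box factor of the heart field and forelimb, read 6.81 in RQ, 7.12 in MI and 6.78 in WT. These 3 regulators lay 0.50 to 1.17 above the median, and their signals were highest in MI. By distance from the array median, Nkx2-5 was highest in RQ (0.93, against 0.92 in MI).

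Myh6, the alpha chain of cardiac myosin, read 6.51 in RQ, 6.47 in MI and 6.47 in WT. Tnnt2, cardiac troponin T, read 5.64 in RQ, 5.78 in MI and 5.57 in WT, below the median throughout. Ttn, the giant sarcomere protein titin, read 7.51 in RQ, 8.01 in MI and 7.39 in WT. Its MI value was 0.63 above that of WT, the largest positive difference of a marker for MI minus WT, yet short of 2-fold. The other 5 probe sets of Ttn lay -0.05 to 0.27 apart for MI minus WT, all less than the first.

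Blood and endothelial markers were mostly below the median. Gata1, the zinc-finger factor of red cells and megakaryocytes, read 6.98 in RQ, 7.16 in MI and 6.99 in WT. Tal1, a bHLH factor needed for all blood, read 5.94 in RQ, 6.21 in MI and 6.05 in WT. Hba-x, an embryonic alpha-like globin of primitive red cells, read 5.29 in RQ, 5.36 in MI and 5.48 in WT. Globin thus lay 0.81 to 0.99 below the median, the lowest of the markers on each array.

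Kdr, the VEGF receptor of blood and endothelial progenitors, read 5.94 in RQ, 5.98 in MI and 5.96 in WT. Cdh5, the endothelial cadherin, read 5.46 in RQ, 5.65 in MI and 5.54 in WT. Both were below the median on each array. Pecam1, an adhesion molecule of endothelium that mouse embryonic stem cells also carry, differed from these, with 6.76 in RQ, 6.65 in MI and 6.22 in WT. Its log2 difference from WT was 0.54 in RQ and 0.43 in MI, short of 2-fold.

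Neural markers held the gene farthest above the median. Stmn2, a stathmin that regulates microtubules in growing neurons, read 9.35 in RQ, 8.33 in MI and 9.57 in WT. MI stood apart from the others, 2.35-fold lower than WT (log2 difference -1.23), and RQ was 2.03-fold higher than MI (1.02). The second Stmn2 probe set read 8.31 in RQ, 7.18 in MI and 7.58 in WT. It was again lowest in MI but placed RQ above WT by 0.73, where the first gave -0.21, so the probe sets disagree on RQ against WT.

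The 2-fold readings of Stmn2 held under some scalings and not under others. The SD over all probe sets was 1.17 in RQ, 1.06 in MI and 1.17 in WT, so the MI array had the narrowest range of signals. MI minus WT was -1.30 with arrays centred on their medians, -0.99 after a lowess correction for level and -0.89 after quantile normalization again. RQ minus MI was 1.09 with centred arrays, 0.72 with the lowess correction and 0.67 with repeated quantile normalization. With the mean of both probe sets, a choice apart from scaling, MI minus WT was -0.82 and RQ minus MI was 1.07. The direction was the same in each.

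The other neural markers did not follow Stmn2, and none differed by 2-fold. Sox1, the earliest neural plate factor of the SoxB1 family, read 5.74 in RQ, 5.81 in MI and 5.89 in WT. Pax6, a paired-box factor of neural progenitors, read 6.49 in RQ, 6.60 in MI and 6.52 in WT. Tubb3, the neuronal beta-tubulin, read 6.09 in RQ, 6.01 in MI and 5.75 in WT. Sox1 and Tubb3 lay below the median on each array and Pax6 close above it. Nes, the intermediate filament nestin of neural and other progenitors, read 7.81 in RQ, 8.22 in MI and 7.97 in WT, and its other probe sets lay between 5.86 and 6.86.

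The neural crest markers Sox10, Mitf and Tfap2a were above the median on each array. Sox10, an HMG-box factor of migrating crest and glia, read 7.61 in RQ, 7.91 in MI and 7.71 in WT. Mitf, the bHLH factor of pigment cells, read 7.32 in RQ, 7.54 in MI and 7.10 in WT. Tfap2a, an AP-2 factor of crest and surface ectoderm, read 7.82 in RQ, 8.04 in MI and 7.66 in WT. Each was highest in MI, by 0.19 to 0.44 over WT. These readings rest on the strongest probe set, since the other probe sets lay at 6.04 to 6.22 for Sox10, at 5.69 to 5.88 for Mitf and at 5.73 to 6.71 for Tfap2a.

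**Figure D2:**
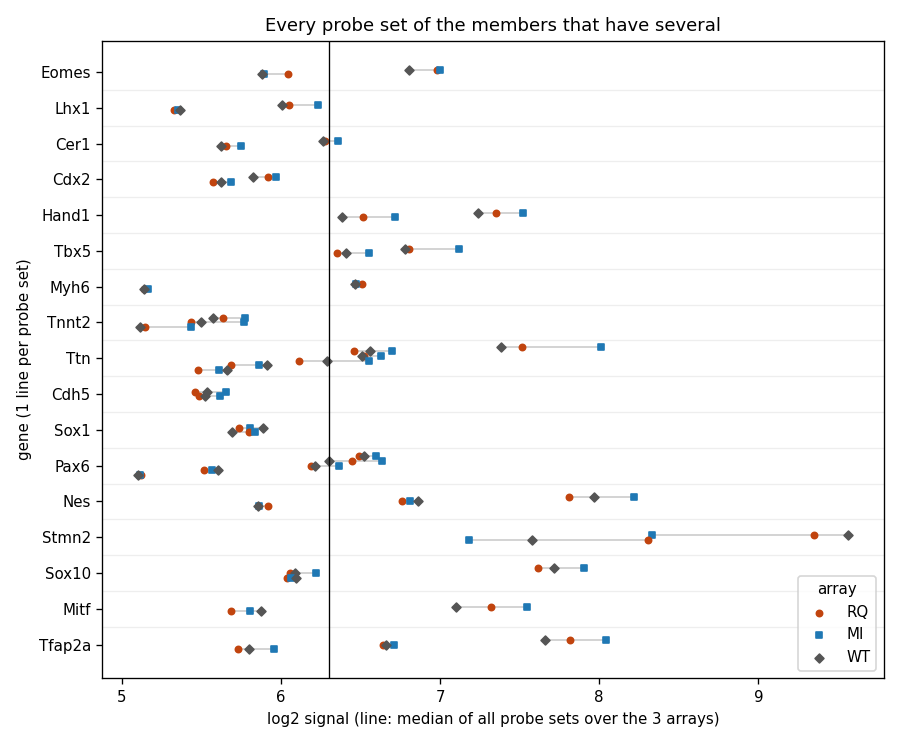
Log2 signal of every probe set of the 17 markers that have several, 1 line per probe set, with the RQ, MI and WT arrays as circles, squares and diamonds and the pooled median of 6.31 as a vertical line. Probe sets of 1 gene often lie farther apart than the 3 arrays do, and for Stmn2 each probe set is lowest in MI.

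The first comparison asks how far RQ bodies differed from WT bodies in these markers. A gene was read where the higher of the 2 arrays reached the median of all probe sets, log2 6.31, and 18 markers passed. Tcf15 was the 1 marker at least 2-fold higher, and 0 were at least 2-fold lower. Over 12226 genes read, 1.68% were 2-fold higher and 1.49% 2-fold lower. The markers' median difference was 0.04, against 0.01 over all genes read. Of the 36 markers, 33 (91.7%) lay within 0.25 of WT, against 76.9% of all genes. Above 0 were 23 markers (63.9%), against 49.1% of all genes. Of 17 markers with several probe sets, 6 had all of them on the same side of 0.

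For MI bodies against WT bodies, 23 markers were read. None was at least 2-fold higher, and Stmn2 was the 1 marker at least 2-fold lower. Over 12786 genes read, 0.516% were 2-fold higher and 2.44% 2-fold lower. The median difference was 0.19 over the markers read and 0.06 over all genes read. On the strongest probe set, 33 of the 36 markers (91.7%) were above 0, against 63.5% of all genes. The exceptions were Stmn2, Hba-x and Sox1. Of 17 markers with several probe sets, 10 had all of them on the same side of 0. The second Sox1 probe set gave 0.15. How often the probe sets of other genes share a side was not counted. After the lowess correction 30 markers were above 0 (83.3%), with a median of 0.10, against 49.9% of all genes. The MI array read highest for 29 of 36 markers (80.6%) and for 50.4% of all genes, and with arrays centred on their medians for 22 markers (61.1%) and 34.5% of all genes. Among genes with a mean level of 5.5 to 7.5, a range chosen after seeing the data, 29 of 30 markers (96.7%) were above 0 for MI minus WT, against 71.5% of 13747 genes. These are small differences on 1 array, and the part of scaling in them was not tested.

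For RQ bodies against MI bodies, 23 markers were read. Stmn2 was the 1 marker at least 2-fold higher, and 0 were at least 2-fold lower. Over 12800 genes read, 1.98% were 2-fold higher and 0.508% 2-fold lower. The median difference was -0.17 over the markers read and -0.05 over all genes read. Of the 36 markers, 5 (13.9%) were above 0, namely Stmn2, Tcf15, Pecam1, Tubb3 and Myh6, against 36.8% of all genes. After the lowess correction 14 were above 0 (38.9%), with a median of -0.04, against 49.9% of all genes. Before that correction, 13 of 17 markers with several probe sets had all of them on the same side of 0. Both comparisons with WT use the same WT array, so they are not independent.

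**Figure D3:**
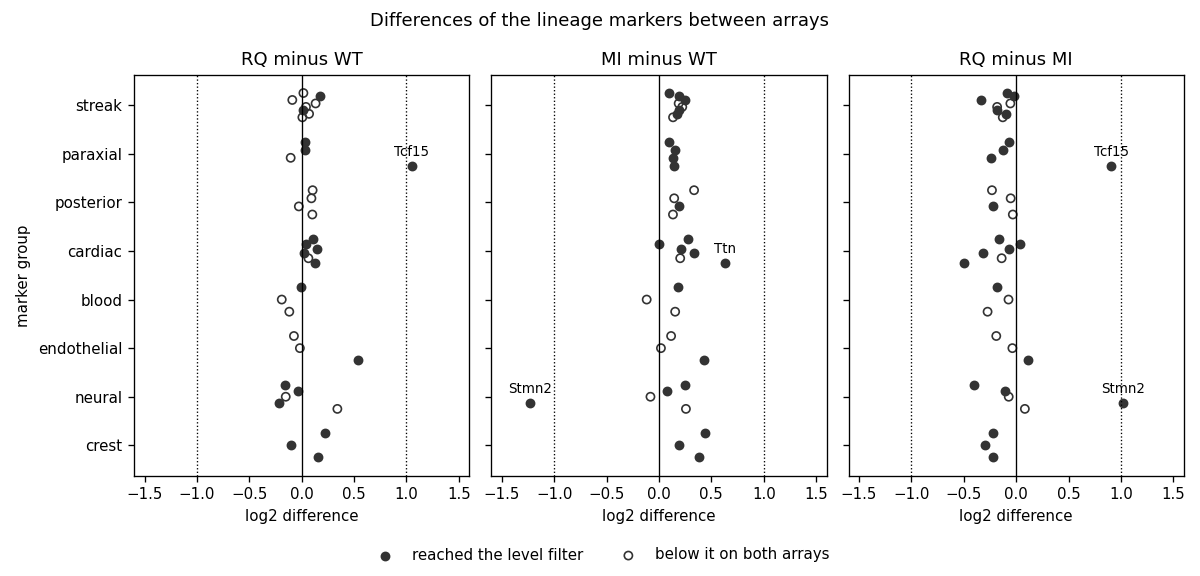
Log2 differences of the 36 measured markers by marker group, for RQ minus WT, MI minus WT and RQ minus MI, with filled points for markers read and open points for those below the level filter on both arrays, and 2-fold limits dotted. Tcf15 is past 2-fold in RQ minus WT, and Stmn2 in MI minus WT and RQ minus MI.

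Wider lists for the same lineages, with surface ectoderm added, held 163 further genes, of which 154 had a probe set. Their median distance from the array median was 0.06 in RQ, 0.09 in MI and -0.00 in WT. At least 1 unit above it stood 14 in RQ (9.1%), 16 in MI (10.4%) and 13 in WT (8.4%), against 27.3%, 24.5% and 25.9% of all genes. For MI minus WT, 119 of the 154 were above 0 (77.3%), against 63.5% of all genes. After the lowess correction 89 were above 0 (57.8%), with a median of 0.02, against 49.9% of all genes. For RQ minus WT, 68 were above 0 (44.2%), against 49.1% of all genes. Among those read, 0 of 80 passed 2-fold for RQ minus WT in either direction, against 1.68% higher and 1.49% lower over all genes read. For MI minus WT, 1 of 89 was higher and 1 lower, against 0.516% and 2.44% of all genes read. For RQ minus MI, 1 of 88 was higher and 1 lower, against 1.98% and 0.508%.

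The genes of the wider lists past 2-fold were Otx2 and Cd34. Otx2, a homeobox factor of epiblast and anterior neural plate, read 7.52 in RQ, 5.98 in MI and 7.35 in WT. It was lower in MI than in WT (log2 difference -1.37) and higher in RQ than in MI (1.54). Cd34, a surface glycoprotein of blood progenitors, endothelium and some mesenchymal cells, read 5.69 in RQ, 6.71 in MI and 5.61 in WT. It was higher in MI than in WT (1.10), and RQ was lower than MI (-1.02).

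In the wider streak list, Tdgf1, the Nodal co-receptor Cripto that pluripotent cells also express, read 12.02 in RQ, 11.68 in MI and 11.22 in WT. The growth factor gene Fgf4 read 7.54 in RQ, 7.36 in MI and 7.35 in WT. The Wnt effector Lef1 read 7.12 in RQ, 6.88 in MI and 6.96 in WT. All 3 were highest in RQ, by less than 2-fold. In the paraxial list, the Notch ligand gene Dll1 read 7.09 in RQ, 6.95 in MI and 7.95 in WT. It was lower in both mutants than in WT, with a log2 difference of -0.86 in RQ and one just short of 2-fold in MI. Aldh1a2, which makes retinoic acid, read 7.56 in RQ, 7.68 in MI and 7.46 in WT, and the Notch modifier gene Lfng read 7.19 in RQ, 7.41 in MI and 7.25 in WT.

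In the wider posterior list, the 3 genes with the highest mean were Hox genes. Hoxa5 read 8.99 in RQ, 9.29 in MI and 9.06 in WT. Hoxa3 read 7.57 in RQ, 7.59 in MI and 7.62 in WT, and Hoxc6 read 7.41 in RQ, 7.41 in MI and 7.32 in WT. The probe sets of Hoxa5 and Hoxc6 are of a type that can match several transcripts. In the heart list, no gene stood 1 unit above the median on any array. Its atrial myosin light chain gene Myl4 read 7.14 in RQ, 7.20 in MI and 7.21 in WT. Actn2, sarcomeric alpha-actinin, read 6.99 in RQ, 7.28 in MI and 6.89 in WT, and Actc1, cardiac alpha-actin, read 6.62 in RQ, 6.78 in MI and 6.79 in WT.

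In the blood list, Csf1r, the macrophage receptor, was the 1 gene past 1 unit and read 7.59 in RQ, 7.85 in MI and 7.70 in WT. Runx1, a factor of definitive blood, read 6.96 in RQ, 7.26 in MI and 7.19 in WT. Klf1, the erythroid zinc-finger factor, read 6.95 in RQ, 7.26 in MI and 7.02 in WT. All 3 were highest in MI. In the endothelial list, Egfl7, a secreted vascular factor, read 6.95 in RQ, 6.84 in MI and 7.52 in WT, and passed 1 unit in WT alone. Flt4, a lymphatic VEGF receptor, read 7.12 in RQ, 7.23 in MI and 7.14 in WT, and Eng, the TGF-beta co-receptor endoglin, read 7.21 in RQ, 7.06 in MI and 7.05 in WT.

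In the wider neural list no gene stood 1 unit above the median. The SoxB1 factor Sox3 read 6.77 in RQ, 6.72 in MI and 6.80 in WT. The neurofilament gene Nefl read 6.39 in RQ, 6.84 in MI and 6.93 in WT, and the neuronal factor Sox11 read 6.51 in RQ, 6.57 in MI and 6.98 in WT. All 3 were highest in WT. In the crest list, Ngfr, a neurotrophin receptor of crest cells, read 7.66 in RQ, 7.38 in MI and 7.21 in WT, and the AP-2 factor Tfap2b read 7.49 in RQ, 7.66 in MI and 7.41 in WT. Msx2, a homeobox factor of crest and limb, differed from WT by -0.10 in RQ and 0.32 in MI. In the surface ectoderm list, the epithelial factor Grhl2 read 8.19 in RQ, 8.35 in MI and 8.15 in WT. Its relative Grhl3 read 7.47 in RQ, 6.97 in MI and 7.07 in WT, and the homeobox factor Dlx3 read 6.69 in RQ, 6.78 in MI and 6.64 in WT.

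Markers of other cell types give a measure of stronger signals on the same arrays. Of 10 pluripotency genes, 10 stood 1 unit above the median in RQ, 9 in MI and 9 in WT, with median distances of 4.84, 3.71 and 3.39. The stem cell gene Dppa5a read 13.37 in RQ, 13.20 in MI and 13.52 in WT. The core factors Nanog and Pou5f1 read 11.94 in RQ, 11.41 in MI and 10.27 in WT for Nanog, and 11.25 in RQ, 10.21 in MI and 11.39 in WT for Pou5f1. These 3 genes thus stood far above the median on day 7. Over the whole list, the RQ array lay 2-fold or more above WT for 7 of 10 genes and above MI for 6 of 10, and 2-fold below them for 0. In MI against WT, 3 were at least 2-fold higher and 1 was lower. Of the 36 lineage markers, 4 were also highest in RQ, namely Tcf15, Pecam1, the neuronal Tubb3 and the cardiac Myh6. The part of stem cells in these readings was not tested.

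Of 17 extraembryonic endoderm genes, 4 stood past that limit in RQ, 3 in MI and 9 in WT, and the same 10 genes lay 2-fold or more below WT in each mutant. The matrix gene Sparc read 8.52 in RQ, 9.16 in MI and 12.37 in WT. The collagen IV gene Col4a1 read 8.62 in RQ, 8.68 in MI and 11.46 in WT, and the laminin gene Lamb1 read 8.08 in RQ, 8.02 in MI and 10.65 in WT. On the strongest probe set, the other 7 genes of the list did not share this fall, namely Gata4, Gata6, Sox17, Foxa2, Sox7, Afp and Ttr. All but Foxa2 have further probe sets, which were not examined. Choosing by the mean over the 3 arrays can pass over a probe set that is low in the mutants. In MI these 7 genes lay within 0.25 of WT, and in RQ they differed from WT by -0.35 (Foxa2) to -0.09 (Gata6). On the WT array itself their distances from the median were -0.15 (Foxa2) to 0.81 (Afp). Of the lineage markers read, at most 1 passed 2-fold in a comparison. Over all genes read, 0.508% to 2.44% passed it in a given direction, so a count this low does not set the markers apart.

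Of 10 fibroblast markers, 1 stood past 1 unit in RQ, 4 in MI and 1 in WT. In MI against WT, 4 were at least 2-fold higher, and 5 lay within 0.25 of WT. The intermediate filament gene Vim read 7.75 in RQ, 10.89 in MI and 8.05 in WT. The matrix proteoglycan gene Dcn read 6.48 in RQ, 9.54 in MI and 6.57 in WT, and the calcium-binding protein gene S100a4 read 5.93 in RQ, 9.33 in MI and 6.02 in WT. The fibroblast surface marker Thy1, named after its values were seen, read 6.21 in RQ, 6.25 in MI and 6.24 in WT. Cd34 and Ttn were also highest in MI, but so were 80.6% of the lineage markers and 50.4% of all genes. The part of fibroblast cells in these readings was not tested.

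Of the 4 trophoblast genes measured, 2 stood past 1 unit on each array. Tfap2c, which pluripotent and germ cells also express, read 9.49 in RQ, 8.71 in MI and 8.39 in WT. The placental homeobox gene Esx1 read 7.93 in RQ, 8.49 in MI and 7.94 in WT, and Ascl2, a bHLH factor of the placenta, read 6.14 in RQ, 6.08 in MI and 6.29 in WT. Elf5, a defining trophoblast factor named after its values were seen, read 6.00 in RQ, 6.07 in MI and 6.02 in WT. Eomes, Cdx2 and Hand1, which trophoblast also expresses, are given above as lineage markers.

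**Figure D4:**
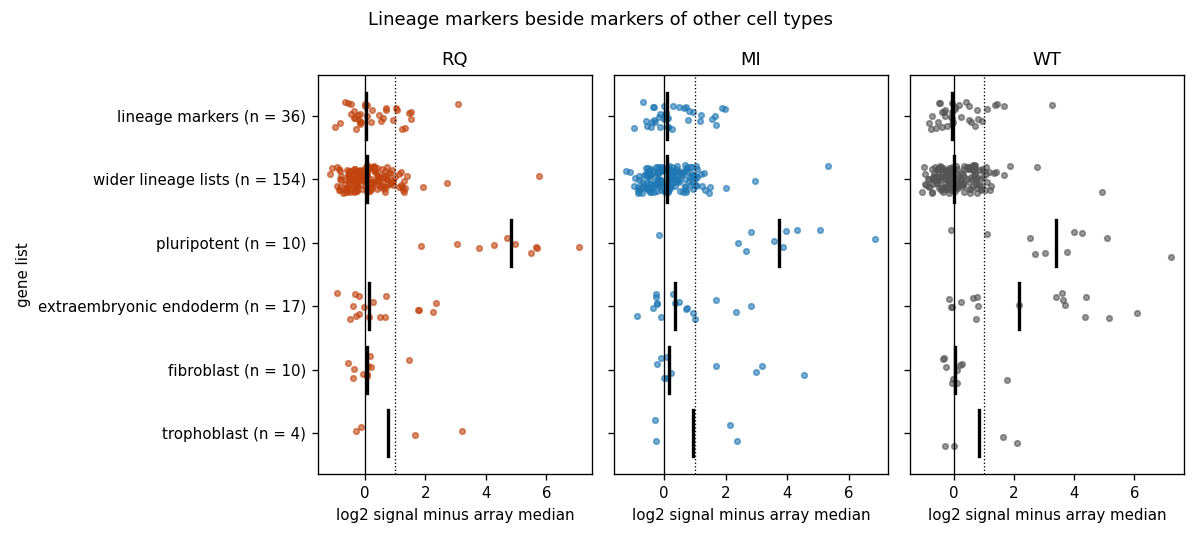
Distance from the array median, in log2 units, of every gene in 6 lists on the RQ, MI and WT arrays, with list medians as black bars and 1 unit above the array median dotted. The medians of the lineage markers and the wider lineage lists lie within 0.09 of the array median, while pluripotency genes centre at 4.84, 3.71 and 3.39.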

How the data were processed

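Biotin-labelled cRNA was made from 6 ug of total RNA of day 7 bodies, per the labels' protocols, for Affymetrix expression arrays. The deposited values are log2 signals, and Partek and RMA are named without versions in the submitters' processing notes. RMA corrects background, aligns distributions and summarises probes, which can compress low signals. Gene names came from GEO's platform annotation, which can be old: 34958 of 45101 had 1 symbol, and 34945 remained without controls. Distances from the array median and differences between arrays were computed with pandas 2.3.3. No test was run. The counting was tested on simulated data.

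The markers and all lists were chosen with earlier results of these data known. All markers are named. From the wider lists the rule names each gene past 2-fold and up to 3 with the highest mean, and from each list of another cell type the 3 with the highest mean. Thy1 and Elf5 were named after their values were seen. Genes on 2 lists are counted in the lineage list alone. Alternatives were centring, quantile normalization, lowess (span 0.3, 3 iterations, statsmodels 0.14.6), other probe set choices, filters, margins and fold limits. The CpG limits were set for this description.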

Additional observations from a re-analysis of the deposited data

How the results depend on the processing

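No paired analysis was possible because each genotype has 1 array. Of 108 alternative values of the marker counts and medians, 84 stayed within 1.5 times the count or 0.1 log2 units of the median. Some of them could not move, so the tally is no measure of stability. Centring arrays on their medians leaves distances from those medians unchanged, and a 3-fold limit cannot raise a count of 0. The number of markers past 1 unit above the array median was 13 in RQ, 12 in MI and 11 in WT with a margin of 0.5, and 1, 0 and 1 with a margin of 2. With each gene taken as the average of its probe sets it was 2 in RQ, 1 in MI and 1 in WT, and the median distance in RQ was -0.13. Against the 75th percentile of the array, 12 passed in MI and 9 in WT, and without probe sets ending in _x_at, _s_at or _a_at, which leaves 34 markers, 3 passed in WT. The shares of all genes under these alternatives were not counted.

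At a 1.5-fold limit 1 marker was higher in MI than in WT and 2 were higher in RQ than in MI, and at a 3-fold limit 0 passed in any comparison. Quantile normalization again left 0 markers past 2-fold in each comparison. The lowess correction left 0 for MI minus WT and for RQ minus MI, and means of probe sets left 0 for MI minus WT. No 2-fold reading of Stmn2 or Tcf15 changed direction under the alternatives run. The cause was not tested. With 1 array per genotype and no detection calls, differences of markers near the array median have no error estimate.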
